A study of Oryza sativa with 4 samples.

Results

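The long arm of rice chromosome 11 was examined as a stretch of chromatin that carries few peaks of histone H4 acetylated at lysine 5 (H4K5ac). Its members were all H4K5ac peaks on chromosome 11 whose midpoint lay from 14 to 27 Mb. They numbered 613 in the drought-stressed list and 681 in the well-watered list, together 1294 of the 55030 peaks of the series (2.35%). The long arms of chromosome 12 (13.9 to 25.5 Mb) and of chromosome 3 (21.4 to 34.4 Mb) were treated in the same way for comparison. The first held 547 drought-stressed and 574 well-watered peaks, and the second 1112 drought-stressed and 1219 well-watered peaks. The last peaks before 14 Mb began at 13996513 (722 bp, drought-stressed) and 13996432 (743 bp, well-watered), and the first inside at 14014821 (826 bp) and 14014741 (1086 bp). At the other bound, the last peaks inside began at 26970961 (317 bp) and 26986179 (255 bp), and the first outside at 27001474 in both lists (522 and 537 bp).

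The peaks came from chromatin immunoprecipitation and sequencing (ChIP-seq) on leaves of the cultivar Hanyou73 (HY73), a hybrid rice bred for saving water and resisting drought, at the grain filling stage. The groups were drought-stressed (DS) and well-watered (WW) plants, of the same cultivar, tissue and stage, with 2 libraries each. Each group had 1 deposited peak list that stood for both of its libraries, so no value below has a replicate error and no p-value between the conditions is given. The labels do not say whether the libraries of a group came from separate plants, nor how deeply they were sequenced. In whole leaves, a mark present in fewer cells and a weaker mark in each cell cannot be told apart.

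Acetylation of lysine 5 neutralises a positive charge on the H4 tail and is read by bromodomain proteins. In plants, as in animals and yeast, it is associated with the promoters of transcribed genes, and it is also placed on newly made H4 before the histone enters chromatin. Rice chromosomes 11 and 12 are known for many clustered disease resistance genes of the NBS-LRR family, while chromosome 3 is known as gene-rich. No gene was assigned to any peak here, because the genome build behind the lists is not given in the sources used here and the rice gene table at hand names another assembly. For the same reason no DNA sequence is shown. Positions are 1-based and in the coordinates of the deposited lists.

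The arm was sparsely marked along most of its length, at a density near that of its counterpart on chromosome 12. It held 47.2 DS peaks per Mb (95% interval 43.5 to 51.04, counting error only) and 52.4 WW peaks per Mb (48.5 to 56.5). Over the 12 chromosomes the density was 69.9 DS and 77.2 WW peaks per Mb. The arm was thus sparse in both lists, at 0.675 of the 12-chromosome density in the DS list (0.622 to 0.731) and 0.679 in the WW list (0.628 to 0.732).

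Against the chromosome 12 arm, the density ratio was 1.00 in the DS list (0.890 to 1.12) and 1.06 in the WW list (0.946 to 1.19). The intervals of both ratios held 1. Against the chromosome 3 arm, it was 0.551 in the DS list (0.499 to 0.609) and 0.559 in the WW list (0.508 to 0.614). The chromosome 11 arm therefore carried a little over 0.5 of the peaks of an equally long stretch of chromosome 3, in either list. On chromosome 11 itself, the 14 Mb before the arm held 53.6 DS and 60.3 WW peaks per Mb. The stretch after it, from 27 Mb to the last peak, held 57.8 DS and 66.8 WW peaks per Mb. That denser stretch is not counted in the arm as bounded here, so the values given for the arm describe 14 to 27 Mb alone.

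By covered length the contrast was the same. Peaks covered 335.0 kb of the chromosome 11 arm in the DS list and 393.5 kb in the WW list, 2.58% and 3.03% of its length. On the chromosome 12 arm the covered share was 2.69% in the DS list and 3.04% in the WW list. On the chromosome 3 arm it was 5.07% in the DS list and 5.98% in the WW list.

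**Figure D1:**
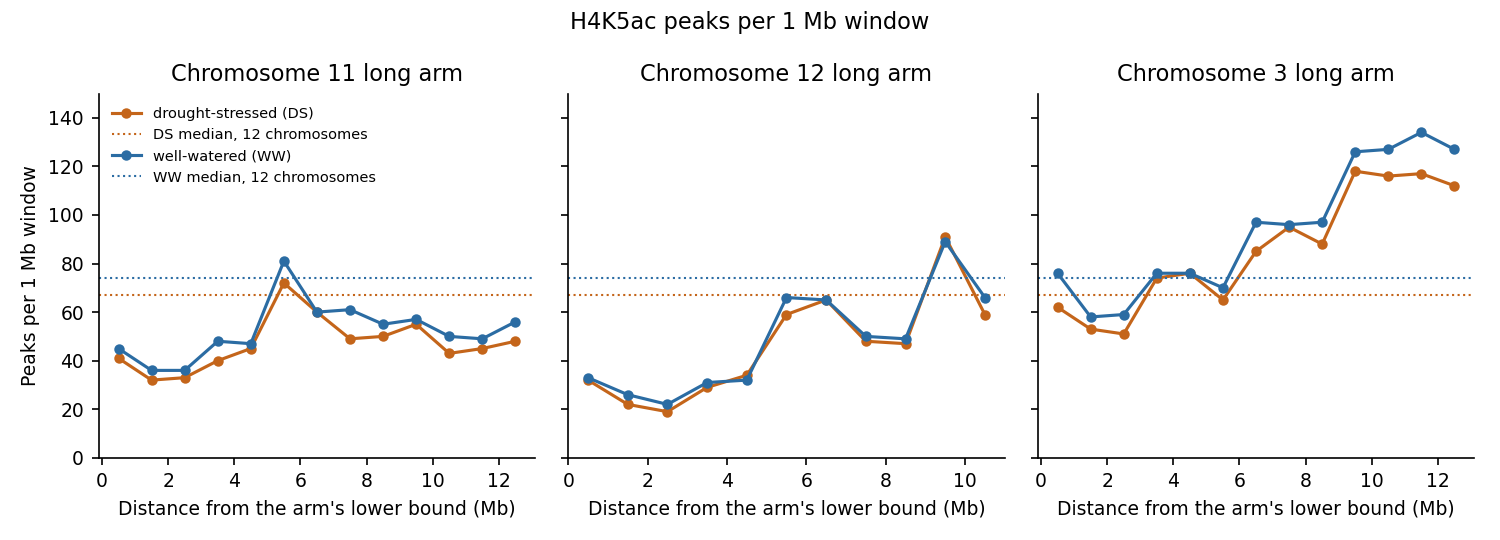
Number of H4K5ac peaks in each complete 1 Mb window of the 3 long arms, by distance from the lower bound of the arm in Mb. Orange is the drought-stressed list and blue the well-watered list; dotted lines are the medians of the 367 complete windows of the 12 chromosomes (67 and 74 peaks). In the chromosome 11 arm 12 of 13 windows lie below the median of their list, and the exception is the window from 19 to 20 Mb.

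Along the arm the density was lowest from 15 to 17 Mb and highest from 19 to 20 Mb. The first 5 windows, from 14 to 19 Mb, held 41, 32, 33, 40 and 45 DS peaks, against 45, 36, 36, 48 and 47 WW peaks. The window from 19 to 20 Mb was the fullest, with 72 DS and 81 WW peaks. From 20 to 27 Mb the windows held 60, 49, 50, 55, 43, 45 and 48 DS peaks, against 60, 61, 55, 57, 50, 49 and 56 WW peaks. The DS list had fewer peaks than the WW list in 12 of the 13 windows and the same number in the window from 20 to 21 Mb. Over the 12 chromosomes the DS list had fewer in 333 of 367 windows.

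The emptiest DS window was that from 15 to 16 Mb, with 32 peaks, and 21 of the 367 windows of the 12 chromosomes held fewer. In the WW list, the windows from 15 to 16 Mb and from 16 to 17 Mb held 36 peaks each, with 24 of 367 windows below them. The fullest window was near the middle of all windows, with 199 windows below it in the DS list and 205 in the WW list. The arm was thus low along most of its length without reaching the emptiest windows of the series, which held 17 DS and 19 WW peaks.

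The windows of the chromosome 12 arm were spread more widely. They held from 19 to 91 DS peaks and from 22 to 89 WW peaks, with medians of 47 and 49, beside medians of 45 DS and 50 WW peaks on the chromosome 11 arm. On the chromosome 3 arm the lowest windows held 51 DS and 58 WW peaks, and 10 of the 13 chromosome 11 windows lay below them in each list. The ranges of the chromosome 11 and chromosome 3 arms overlapped in the remaining windows. On the chromosome 12 arm 7 of 11 windows lay below the lowest chromosome 3 window in each list. Of the 367 windows of the 12 chromosomes, 113 did so in the DS list and 119 in the WW list.

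Long peak-free gaps took up much of the arm, as they did of the rest of chromosome 11. A gap here is the distance from the end of a peak to the start of the next peak of the same list, and a long gap is one of at least 50 kb. The DS list had 66 long gaps that held 5.54 Mb, or 42.6% of the arm, and the WW list had 63 that held 5.02 Mb, or 38.6%. Over the 12 chromosomes such gaps held 26.6% of the length in the DS list and 24.0% in the WW list. On the chromosome 3 arm they held 14.2% and 12.2%. The rest of chromosome 11 stood near the arm. Before the arm long gaps held 41.5% of the length in the DS list and 36.9% in the WW list, and after it 41.7% and 41.3%.

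The chromosome 12 arm had fewer long gaps, but they were longer. It had 51 in each list, which held 48.8% of the arm in the DS list and 45.5% in the WW list. Gaps of at least 100 kb numbered 18 in the DS list and 11 in the WW list on the chromosome 11 arm, against 23 and 22 on the chromosome 12 arm. They held 17.4% of the chromosome 11 arm in the DS list and 10.4% in the WW list, against 31.9% and 27.5% of the chromosome 12 arm. The longest gap measured 178.7 kb in the DS list and 150.1 kb in the WW list on the chromosome 11 arm, against 332.1 kb and 332.3 kb on the chromosome 12 arm.

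In bins of 100 kb the same contrast appeared. Of 130 bins on the chromosome 11 arm, 6 held no DS peak (4.62%) and 3 held no WW peak (2.31%). On the chromosome 12 arm, 15 of 116 bins held no DS peak (12.9%) and 8 held no WW peak (6.90%). Bins with 10 or more peaks were few on both, with 12 DS and 18 WW bins on the chromosome 11 arm. The chromosome 3 arm had 57 such DS bins and 66 such WW bins out of 130. The fullest bin of the chromosome 11 arm, from 18.7 to 18.8 Mb, held 13 DS and 14 WW peaks.

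Outside the long gaps the density was closer to that of the chromosome 3 arm, but not to that of the chromosome 12 arm. There the chromosome 11 arm held 82.2 DS peaks and 85.3 WW peaks per Mb. The chromosome 12 arm held 92.1 DS and 90.8 WW peaks per Mb, and the chromosome 3 arm 99.7 DS and 106.8 WW peaks per Mb. Without the long gaps, the ratio of the chromosome 11 arm to the chromosome 3 arm was 0.824 in the DS list and 0.799 in the WW list. The ratio to the chromosome 12 arm was 0.892 in the DS list and 0.940 in the WW list. The chromosome 11 arm was thus the sparser by this measure in both, but these ratios have no interval. The median spacing of neighbouring peaks was 9522.5 bp in the DS list and 8699.5 bp in the WW list. On the chromosome 12 arm it was 8966.5 and 8685 bp, nearly the same in the WW list. On the chromosome 3 arm it was 7041 and 6417 bp.

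**Figure D2:**
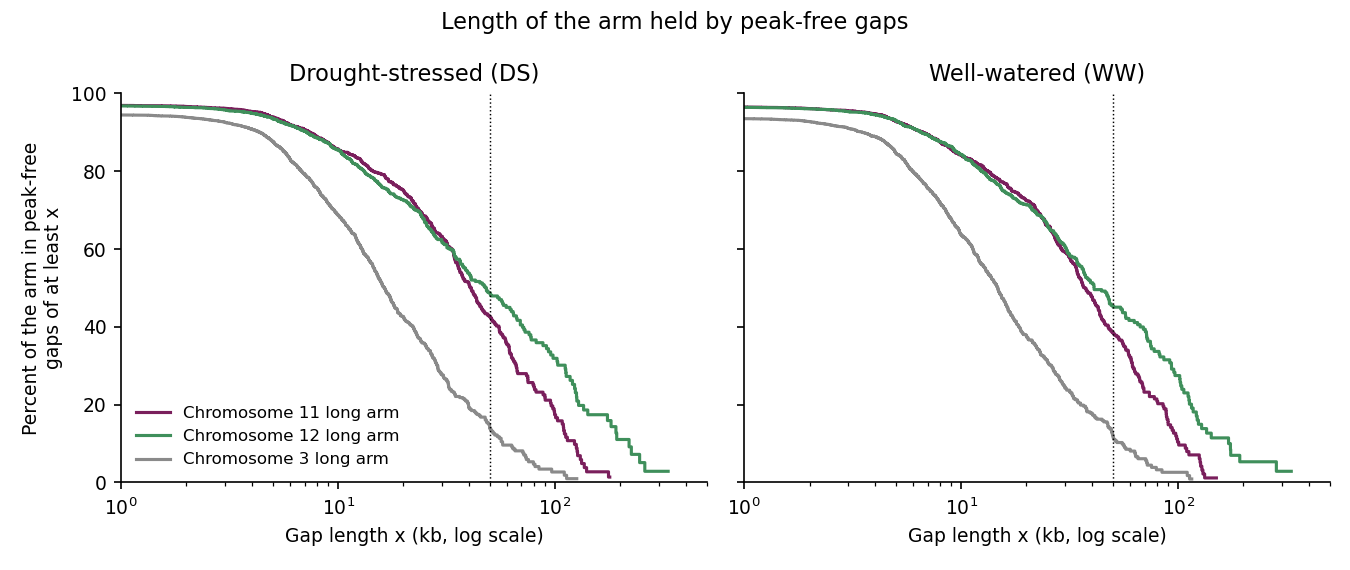
Percent of each long arm that lies in peak-free gaps of at least a given length, with gap length in kb on a log axis; the drought-stressed list is on the left and the well-watered list on the right. The dotted line marks 50 kb, where the chromosome 11 arm stands at 42.6% and 38.6%, below the chromosome 12 arm (48.8% and 45.5%) and above the chromosome 3 arm (14.2% and 12.2%).

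The long gaps lay mostly in the same places in both lists. Of the length of the DS gaps 85.5% was also in a WW gap, and of the length of the WW gaps 94.4% was also in a DS gap. The other arms were alike, with 89.3% and 95.8% on the chromosome 12 arm and 83.5% and 96.8% on the chromosome 3 arm. Inside the DS gaps of the chromosome 11 arm lay 36 WW peaks, spread over 26 of the 66 gaps. Inside its WW gaps lay 8 DS peaks, 1 in each of 8 gaps. On the chromosome 12 arm 21 of 51 DS gaps held a WW peak and 7 of 51 WW gaps held a DS peak. On the chromosome 3 arm 9 of 26 and 1 of 23 did so. With the peaks of both lists pooled, 59 gaps of at least 50 kb were left on the chromosome 11 arm, and they held 36.2% of it.

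The longest DS gap ran from 24974132 to 25152843. It was bounded by DS peaks of 494 and 658 bp that both overlapped a WW peak, and a WW peak of 156 bp from 25066615 to 25066770 (score 148) lay inside it. The second, from 24385362 to 24561685 (176.3 kb), held WW peaks from 24535510 to 24535658 (149 bp, score 21) and from 24536725 to 24537300 (576 bp, score 41). The smaller of these, just above the lowest score of the WW list (20), ended the longest WW gap, from 24385393 to 24535509 (150.1 kb). The DS gap was thus the longer where the WW list had these 2 low-scored peaks.

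The third DS gap, from 14188104 to 14327848 (139.7 kb), held 2 WW peaks, of 308 and 175 bp. The second WW gap, from 19184922 to 19317441 (132.5 kb), and the third, from 16317624 to 16447770 (130.1 kb), held no DS peak and were matched by DS gaps of 132.5 and 130.8 kb. The WW gap from 16317624 ended at a WW peak of 1470 bp that is described below for its width change.

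Isolated peaks, more than 20 kb from any other peak of their list, were common on the arm. They made up 90 of 613 DS peaks (14.7%, Wilson 95% interval 12.1% to 17.7%) and 78 of 681 WW peaks (11.5%, 9.28% to 14.1%). Over all sequences the share was 5.25% of DS peaks (4.98% to 5.52%) and 4.22% of WW peaks (3.99% to 4.46%). On the chromosome 12 arm it was 10.1% of DS peaks (7.81% to 12.9%) and 10.5% of WW peaks (8.21% to 13.2%), and on the chromosome 3 arm 2.70% and 2.30%. The intervals of the chromosome 11 arm lay above those of the chromosome 3 arm and of all sequences, and overlapped those of the chromosome 12 arm.

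The isolated peaks of the chromosome 11 arm were somewhat wider and higher-scored at the median than its other peaks, with overlapping intervals. Their median width was 633.5 bp in the DS list (564 to 676 bp), against 544 bp (515 to 568 bp) for the other DS peaks of the arm, and 641 bp in the WW list (542 to 750 bp), against 570 bp (530 to 594 bp). Their scores, ranked within the whole list, had a median percentile of 58.6 in the DS list and 57.5 in the WW list, against 48.1 and 46.6 for the other peaks. On the chromosome 12 arm the medians ran the other way, with isolated peaks at 528 bp and 42.1 in the DS list, against 573 bp and 55.9 for the rest. In the chromosome 11 arm 85 of the 90 isolated DS peaks (94.4%) were found in the WW list too. Of the 78 isolated WW peaks, 68 (87.2%) were found in the DS list. Over all sequences these shares were 91.9% of isolated DS peaks and 82.6% of isolated WW peaks. Among the other peaks of the arm they were 96.0% of DS peaks and 85.2% of WW peaks.

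**Figure D3:**
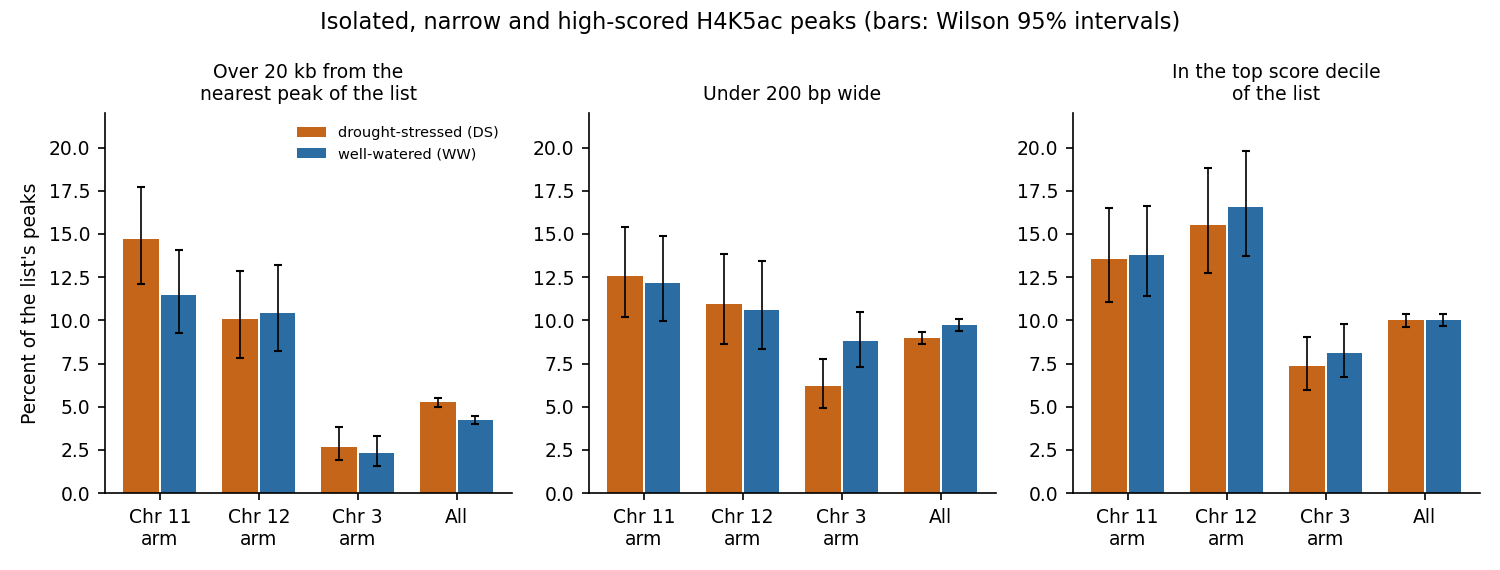
Percent of the peaks of each list, by arm and over all sequences, that lie over 20 kb from the nearest peak of the list (left), are under 200 bp wide (middle) or fall in the top score decile of the list (right); orange bars are drought-stressed, blue bars well-watered, and error bars are Wilson 95% intervals for counting error only. The chromosome 11 arm stands at 14.7% and 11.5% isolated, 12.6% and 12.2% narrow, and 13.5% and 13.8% top-scored peaks.

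Peaks of the arm were slightly narrower than those of the series. The median width was 553 bp in the DS list (529 to 578 bp) and 576 bp in the WW list (543 to 599 bp), with interquartile ranges of 321 to 709 bp and 301 to 769 bp. Over all sequences the medians were 570 bp in the DS list (566 to 574 bp) and 611 bp in the WW list (606 to 615 bp). The WW interval of the arm lay below that of all sequences, whereas the DS intervals overlapped. By window the median ran from 413 bp (18 to 19 Mb) to 668 bp (22 to 23 Mb) in the DS list, and from 493 bp (18 to 19 Mb) to 706.5 bp (20 to 21 Mb) in the WW list.

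Narrow peaks were more frequent than on the chromosome 3 arm in the DS list, but not set apart from the chromosome 12 arm. Peaks under 200 bp, about the span of a nucleosome with its linker, numbered 77 in the DS list (12.6%, 10.2% to 15.4%) and 83 in the WW list (12.2%, 9.94% to 14.9%). Over all sequences they made up 8.99% of DS peaks and 9.71% of WW peaks, and on the chromosome 3 arm 6.21% (4.93% to 7.78%) and 8.78% (7.32% to 10.5%). The DS interval of the chromosome 11 arm lay above that of the chromosome 3 arm, and the WW intervals overlapped. On the chromosome 12 arm the shares were 10.97% of DS peaks (8.62% to 13.9%) and 10.6% of WW peaks (8.36% to 13.4%), and both intervals overlapped those of the chromosome 11 arm. Sonicated fragments of 200 to 600 bp were used, so the ends of a peak are less sharp than its listed width. At the other end, 31 DS peaks (5.06%) and 53 WW peaks (7.78%) were over 1 kb wide, against 6.01% and 9.48% over all sequences.

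The widest peak of the arm was the same region in both lists, from 23610938 to 23612777 (1840 bp) in the DS list and from 23610901 to 23612885 (1985 bp) in the WW list. The next in the DS list were 1767 bp wide, from 22861982 to 22863748, and 1522 bp wide, from 18464177 to 18465698. Both were broader than the WW peaks they met, of 1623 and 1243 bp. The next in the WW list were 1785 bp wide, from 25461227 to 25463011, and 1732 bp wide, from 14737684 to 14739415, which met narrower DS peaks of 1229 and 1211 bp. Each of these widest peaks was thus the wider member of its pair except the first DS peak.

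Scores were given by the authors for each peak, on a scale that is not stated, and serve here only to rank peaks within a list. The median percentile of the arm was 48.7 in the DS list and 47.4 in the WW list, near the middle of each list. High ranks were nevertheless frequent: 83 DS peaks (13.5%, 11.1% to 16.5%) and 94 WW peaks (13.8%, 11.4% to 16.6%) fell in the top decile. On the chromosome 3 arm only 7.37% of DS peaks (5.98% to 9.06%) and 8.12% of WW peaks (6.72% to 9.79%) did so, and on the chromosome 12 arm 15.5% and 16.6%. The sparse arms of chromosomes 11 and 12 both held top-scored peaks above the 10% that a decile gives, and the dense chromosome 3 arm held them below it. The rest of chromosome 11, also below the 12-chromosome density, went both ways. Before the arm 12.93% of DS peaks (10.7% to 15.5%) and 13.03% of WW peaks (10.9% to 15.5%) fell in the top decile. After it 6.03% of DS peaks (2.95% to 11.9%) and 6.72% of WW peaks (3.57% to 12.3%) did so, and both intervals held 10%. A link between density and top-scored peaks was not tested.

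The 5 highest-scored peaks of the arm were the same regions in the same order in both lists. The first, from 26665756 to 26666556 in the DS list and from 26665748 to 26666563 in the WW list, was ranked 1 of all DS peaks and 2 of all WW peaks. The others were ranked far lower. The second, from 15550158 to 15550880 in the DS list, had rank 52 there and rank 48 in the WW list, with widths of 723 and 721 bp. The third, from 21342961 to 21343988 in the DS list, had ranks 65 and 60, and widths of 1028 and 1050 bp.

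The remaining pair differed more in extent. The peak placed next ran from 15093319 to 15093724 in the DS list (406 bp, rank 101) and from 15093152 to 15093725 in the WW list (574 bp, rank 93), so that the right ends differed by 1 bp and most of the difference lay at the left end. The last ran from 14560425 to 14561155 in the DS list (731 bp, rank 132) and from 14560346 to 14561155 in the WW list (810 bp, rank 97), with the same right end. Of the 50 highest-scored peaks of the arm in each list, 44 overlapped one of the 50 of the other list. On the chromosome 12 arm 38 of 50 did so, and on the chromosome 3 arm 40 of 50. The 50 are a different part of the peaks of each arm, and no such share was computed over all sequences.

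Most acetylated regions of the arm were present under both water regimes, in shares near those of the whole lists. Of the DS peaks 587 of 613 (95.8%, 93.9% to 97.1%) overlapped a WW peak by at least 1 bp, and of the WW peaks 582 of 681 (85.5%, 82.6% to 87.9%) overlapped a DS peak. The arm held 26 DS peaks without a WW counterpart (4.24%, 2.91% to 6.14%), beside 4.89% of all DS peaks. It held 99 WW peaks without a DS counterpart (14.5%, 12.1% to 17.4%), beside 15.1% of all WW peaks. Both background shares lay inside the intervals of the arm.

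The shares of the other arms were similar. The chromosome 12 arm shared 93.6% of its DS peaks (91.2% to 95.4%) and 88.7% of its WW peaks (85.8% to 91.02%). The chromosome 3 arm shared 95.7% of its DS peaks (94.3% to 96.7%) and 85.7% of its WW peaks (83.7% to 87.6%). All these intervals overlapped those of the chromosome 11 arm. With peaks of both lists joined where they overlapped, the chromosome 11 arm held 703 regions. Of these 578 (82.2%) were in both lists, 26 in the DS list alone and 99 in the WW list alone. The share in both lists was near this over all sequences (81.2%), on the chromosome 12 arm (83.5%) and on the chromosome 3 arm (82.4%).

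Low-scored peaks are shared less often, so the shares were also set against peaks of like score. Had the peaks of the arm been shared as often as all peaks of their score decile, 95.2% of the DS peaks and 84.8% of the WW peaks would have been shared. The observed shares were 0.56 and 0.67 percentage points higher. In the lowest 2 score deciles 96 of 114 DS peaks (84.2%, 76.4% to 89.8%) and 69 of 140 WW peaks (49.3%, 41.1% to 57.5%) were shared. Over all sequences the shares in these deciles were 78.5% of DS peaks and 39.6% of WW peaks. The WW interval lay above the share over all sequences, and the DS interval held it.

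In deciles 3 to 5 the arm stood slightly below all sequences. There 190 of 198 DS peaks (96.0%, 92.2% to 97.9%) were shared, against 98.02% over all sequences, and 194 of 221 WW peaks (87.8%, 82.8% to 91.5%), against 90.1%. The DS interval ended just below the share over all sequences, and the WW interval held it. In the upper 5 deciles all 301 DS peaks were shared, and 319 of 320 WW peaks. The single WW peak without a counterpart, from 26879547 to 26880122 (576 bp, score 535), had its nearest DS peak at a distance of 4415 bp.

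The other leading WW peaks without a DS counterpart had lower scores. They ran from 21859252 to 21859400 (149 bp, score 313), from 25730244 to 25730401 (158 bp, score 226), from 16671127 to 16671292 (166 bp, score 196) and from 26916405 to 26916908 (504 bp, score 182). The last had a DS peak 1208 bp away, and the others had none within 8 kb. Most of the 99 were short: their median width was 212 bp, against 636.5 bp for the shared WW peaks of the arm. Of them 44 were under 200 bp wide, and 21 (21.2%) lay within 1 kb of a DS peak. The values over all sequences were near these. There the median width of such WW peaks was 221 bp, and 1759 of 4372 were under 200 bp wide. Of the 4372, 23.7% lay within 1 kb of a DS peak.

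The DS peaks without a WW counterpart were shorter still. The 5 highest-scored ran from 19794252 to 19794401 (150 bp, score 173), from 23772724 to 23772893 (170 bp, score 135), from 23810362 to 23810672 (311 bp, score 120), from 17837430 to 17837612 (183 bp, score 106) and from 18724785 to 18724944 (160 bp, score 101). All 5 lay over 3 kb from the nearest WW peak, the fourth 33.8 kb from it. The median width of the 26 was 170.5 bp, against 565 bp for the shared DS peaks, and 21 of them were under 200 bp wide. Over all sequences the median width of such DS peaks was 189 bp, and 719 of 1279 were under 200 bp wide. Of the 26, 4 (15.4%) lay within 1 kb of a WW peak, against 33.2% of such DS peaks over all sequences.

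**Figure D4:**
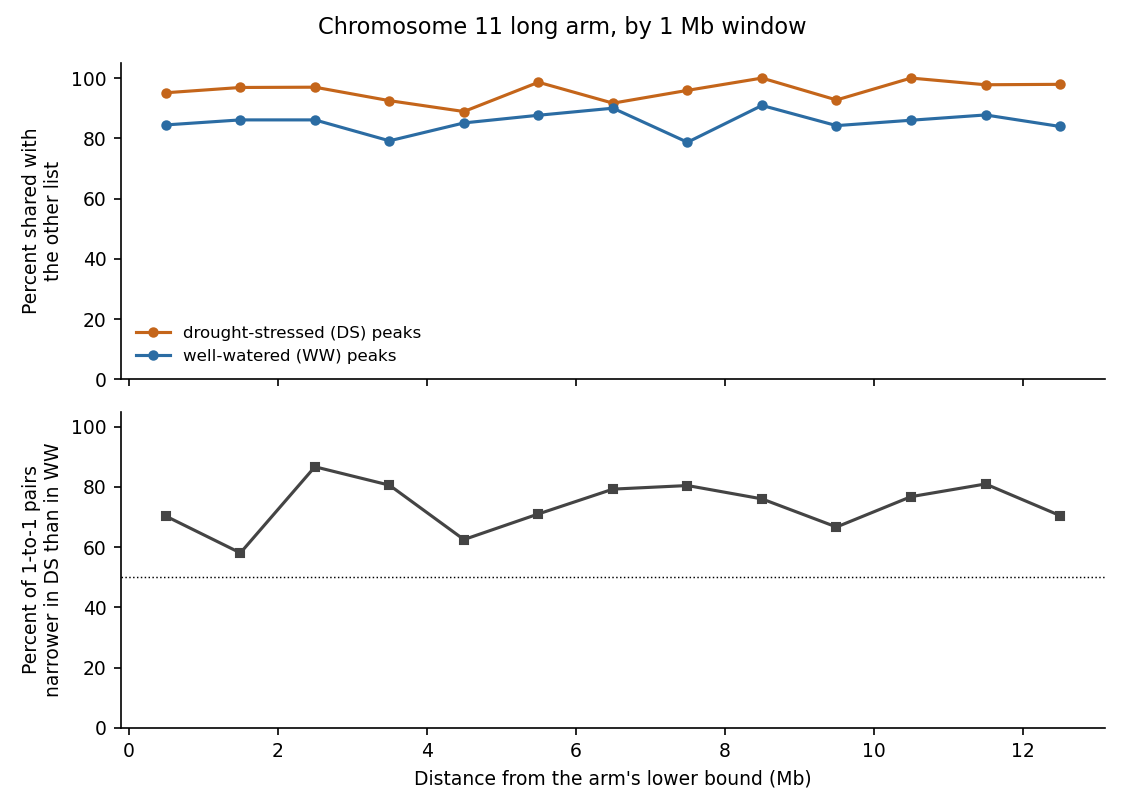
Top: percent of drought-stressed (orange) and well-watered (blue) peaks shared with the other list in each 1 Mb window of the chromosome 11 long arm, by distance from its lower bound. Bottom: percent of 1-to-1 pairs that were narrower in the drought-stressed list, with a dotted line at 50%; every window lies above it, from 58.1% to 86.7%.

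By window, sharing varied, with wide intervals at these small counts. In the DS list it ran from 40 of 45 peaks (88.9%, 76.5% to 95.2%) from 18 to 19 Mb to all 50 peaks from 22 to 23 Mb and all 43 from 24 to 25 Mb. In the WW list it ran from 48 of 61 (78.7%, 66.9% to 87.1%) from 21 to 22 Mb to 50 of 55 (90.9%, 80.4% to 96.1%) from 22 to 23 Mb. The windows with the lowest and the highest share of WW peaks were thus neighbours, and their intervals overlapped.

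Regions present in both lists were mostly narrower under drought, by a small part of their width. The arm held 566 1-to-1 pairs, that is, a DS and a WW peak that overlapped each other and no other peak. Of these 418 (73.9%, 70.1% to 77.3%) were narrower in the DS list, beside 75.1% of all pairs. Another 142 (25.1%) were wider, beside 24.2% of all pairs, and 6 were equal. The background share of narrower pairs lay inside the interval of the arm.

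The median change, DS minus WW, was -44 bp (-55 to -37 bp) on median widths of 568.5 bp in the DS list and 636.5 bp in the WW list. Over all pairs it was -53 bp (-54 to -51 bp), on the chromosome 12 arm -46 bp (-56 to -35 bp) and on the chromosome 3 arm -59 bp (-67 to -53 bp). The interval of the chromosome 11 arm overlapped those of all pairs, of the chromosome 12 arm and, narrowly, of the chromosome 3 arm. Both ends took part: the DS peak began a median of 16 bp further in on the left and ended 18.5 bp further in on the right. Both ends lay inside the WW peak in 255 pairs (45.1%) and both outside it in 55 (9.72%). Over all pairs these shares were near, at 47.4% and 8.92%, and the median shifts were 20 bp on the left and 21 bp on the right.

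The share of narrower pairs was close to what the widths of the arm's pairs give. With each decile of mean pair width given the share found over all pairs, 73.9% of the arm's pairs would have been narrower, and the observed share differed from this by -0.0934 percentage points. On the chromosome 12 arm 70.1% were narrower where its widths gave 74.6%. With 1 window of the chromosome 12 arm left out in turn, the share of narrower pairs ran from 68.8% to 74.3%. The highest value came without the window from 19.9 to 20.9 Mb. The share that the widths give was not computed again without that window. Without any 1 window of the chromosome 11 arm the share of narrower pairs stayed from 73.1% to 74.8%.

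Within the arm, the share of narrower pairs differed strongly between width classes. Among the 137 pairs in the narrowest 2 deciles of mean width (142 to 389 bp), 73 (53.3%, 45.0% to 61.4%) were narrower, with a median change of -5 bp. This class begins near the shortest peaks of the lists, of 145 bp in the DS list and 139 bp in the WW list. What part that floor has in the difference between classes was not tested. Among the 333 pairs of the middle 6 deciles, 259 (77.8%, 73.01% to 81.9%) were narrower, with a median of -48 bp. Among the 96 widest pairs (816.5 bp and over), 86 (89.6%, 81.9% to 94.2%) were narrower, with a median of -88 bp.

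Over all pairs the corresponding shares were 62.2%, 78.2% and 78.9%, with medians of -18, -59 and -69 bp. In the narrowest class the interval of the chromosome 11 arm lay below the share over all pairs, and in the widest class above it. The narrowest pairs of the chromosome 12 arm (50.9%, 41.6% to 60.3%) also lay below the share over all pairs. Those of the chromosome 3 arm (61.4%, 53.6% to 68.6%) lay near it. The widest pairs of the chromosome 12 arm (77.1%, 67.7% to 84.4%) and of the chromosome 3 arm (76.9%, 70.6% to 82.2%) lay near the share over all pairs, although both intervals overlapped that of the chromosome 11 arm. Leaving out any 1 window of the chromosome 11 arm gave 88.6% to 90.7% in the widest class. The difference has no test, and the median change in this class (-123 to -61 bp) was not separated from that over all pairs.

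**Figure D5:**
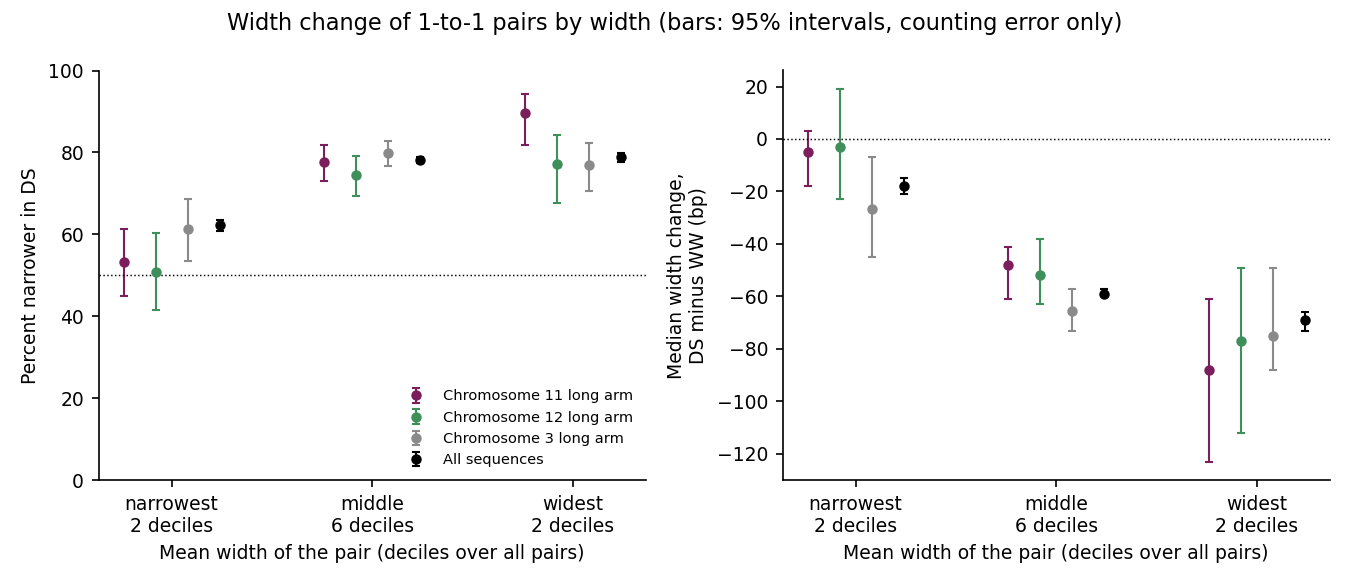
Percent of 1-to-1 pairs narrower in the drought-stressed list (left) and median width change in bp, drought-stressed minus well-watered (right), by class of mean pair width, for the 3 long arms and all sequences; error bars are 95% intervals for counting error only. The chromosome 11 arm stands at 53.3%, 77.8% and 89.6% from the narrowest to the widest class.

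By window, the share of narrower pairs ran from 18 of 31 (58.1%, 40.8% to 73.6%) from 15 to 16 Mb to 26 of 30 (86.7%, 70.3% to 94.7%) in the next window. Neighbouring windows thus gave the extremes, at the smallest numbers of pairs. In all 13 windows more pairs were narrower than not, as in all 13 windows of the chromosome 3 arm. The same held in 9 of 11 windows on the chromosome 12 arm and in 364 of 367 windows of the 12 chromosomes.

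The pairs with the largest changes in width all had scores in the lower 5 deciles of both lists. The largest loss was 1272 bp, where a DS peak of 198 bp from 16448309 to 16448506 met a WW peak of 1470 bp from 16447771 to 16449240, with score percentiles of 15.8 in the DS list and 37.6 in the WW list. The next losses were of 667 bp, where a DS peak of 157 bp from 14397937 to 14398093 met a WW peak of 824 bp, and of 617 bp, where a DS peak of 152 bp from 16986700 to 16986851 met a WW peak of 769 bp. In each of these the DS peak lay wholly inside the WW peak and was under 200 bp wide, where the shortest DS peak of the list had 145 bp.

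The largest gain was 343 bp, where a DS peak of 912 bp from 24951694 to 24952605 met a WW peak of 569 bp. It was followed by gains of 311 bp, at a DS peak of 648 bp from 21716284 to 21716931 that met a WW peak of 337 bp, and of 295 bp, at a DS peak of 568 bp from 22876503 to 22877070 that met a WW peak of 273 bp. The gain lay mainly at the left end in the first 2 and at the right end in the last. In all, 48 pairs (8.48%) were narrower in the DS list by at least 33.3% of the WW width, beside 8.96% of all pairs, and 24 (4.24%) were wider by as much, beside 3.04%.

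Divided peaks were few. On the arm 9 WW peaks met 2 or more DS peaks (1.32%), beside 1.72% of all WW peaks, and 4 DS peaks met 2 or more WW peaks (0.653%), beside 0.597% of all DS peaks. No WW peak of the arm met 3 or more DS peaks.

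Peak number and covered length together gave the same proportion between the conditions as over the 12 chromosomes. The number of DS peaks was 0.900 of the number of WW peaks on the chromosome 11 arm, 0.953 on the chromosome 12 arm, 0.912 on the chromosome 3 arm and 0.905 over the 12 chromosomes. The covered length in the DS list was 0.851 of that in the WW list on the chromosome 11 arm, 0.886 on the chromosome 12 arm, 0.848 on the chromosome 3 arm and 0.847 over the 12 chromosomes.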

How the data were processed

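H4K5ac ChIP-seq of 4 libraries, 2 DS and 2 WW, was used as 2 deposited peak lists, 1 per condition. BWA, SAMtools, MACS2 and deepTools are named, without versions or roles, in the submitters' processing notes. What served as control, the threshold, the genome build and how replicates were pooled is not given in the sources used here. The deposited lists give the start and end of each peak in bp and the authors' score, a whole number whose scale is not stated. Depth is unknown. Peaks of different lists were matched by an overlap of at least 1 bp with pandas 2.3.3 and numpy 2.4.6 under Python 3.11.15, with counts checked by bedtools 2.31.1, and the procedure was checked on simulated lists. Intervals at 95% (Wilson for shares, order statistics for medians, exact Poisson for densities, exact binomial for ratios) were computed with scipy 1.17.1. They take each peak as independent of its neighbours and hold counting error alone. With 1 list per condition no test was run. The arms, lists of measures and cut-offs were chosen with earlier results of these data known. Named regions followed a rule: the highest-scored, widest, condition-only and most changed peaks, the longest gaps and the extreme windows.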

Additional observations from a re-analysis of the deposited data

How the results depend on the processing

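Of 86 alternative values, 64 stayed within the 95% interval of the value reported or, for densities and gaps, within 1.5 times of it, and none turned a direction that the interval had set apart. With peaks above the median score the density became 23.2 DS and 24.6 WW peaks per Mb, the WW ratio to the chromosome 12 arm 0.904, the percent of the arm in long gaps 70.1% in the DS list and 68.8% in the WW list, the median width 646 and 729.5 bp, the shared share against the whole other list 100% of DS and 99.7% of WW peaks, and the share of narrower pairs 82.4%. By construction fewer peaks remained there. Gaps of at least 100 kb numbered 18 and 11 and held 17.4% and 10.4% of the arm. Merging peaks under 500 bp apart gave median widths of 587 and 630 bp. With equal numbers of peaks the WW median width was 612 bp, and 92.5% of DS and 90.5% of WW peaks were shared. Reciprocal overlap of 50% gave 88.7% and 79.9%, and a tolerance of 1 kb gave 88.5% of WW peaks. Leaving out 1 window in turn was added after the data were seen. No paired analysis was possible because both replicates of a condition share a single peak list, nor could a replicate be dropped. Depth is unknown, so no detection limit can be given for low-scored peaks.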
